A study of Homo sapiens with 26 samples.

Results

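The 34 genes described here encode the folding, stress-sensing and degradation machinery of the endoplasmic reticulum, the compartment in which secreted and membrane proteins fold. They were chosen by symbol, with no measured value in the rule but with earlier results of these data known. Each matched 1 row in a table of 19704 genes. They comprised 12 chaperones and co-chaperones, 5 disulfide isomerases, 10 genes of the degradation machinery, 4 stress sensors and their effectors, and 3 genes of translocation and UFM1 modification. Their polyadenylated RNA was measured in the established line U2OS, from a human osteosarcoma, with a luciferase reporter of the clock gene ARNTL (Arntl::dLUC), in a study of the circadian clock in acid. The tested cells were kept in acidic medium (pH 6.3) and their controls in neutral medium (pH 7.4). Both media held serum, the buffers PIPES and HEPES, and 0.1 µM dexamethasone, a glucocorticoid that synchronises cellular clocks, and all dishes were sealed at atmospheric carbon dioxide. Harvests ran at intervals of 4 h up to 52 h, with 1 library for each pH and time, which gave 13 libraries at pH 6.3 and 13 at pH 7.4. Separate sets of plates gave the 4 to 24 h and the 28 to 52 h samples, so later time and plate set cannot be told apart. The line is 1 cell line in culture, and no time point was repeated, so an SD or a p-value below measures spread over time points.

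Proteins enter the endoplasmic reticulum through a translocation channel and fold there with the help of chaperones and of isomerases that form and rearrange disulfide bonds. Proteins that fail to fold are drawn back into the cytosol and destroyed by the proteasome, a route called endoplasmic-reticulum-associated degradation. When unfolded proteins build up, the membrane sensors IRE1 (gene ERN1), PERK (gene EIF2AK3) and ATF6 start the unfolded protein response, in which the factors XBP1, ATF4 and ATF6 switch on genes of folding and degradation.

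ATF6 and XBP1 are known to act at the endoplasmic reticulum stress response element, in which CCAAT is followed after 9 bases by CCACG, and at a shorter form, in which ATTGG is followed after 1 base by CCACG. These elements are shown because they are the known response sequences of the pathway, so their shares among the members describe the promoters and are not a test. Both strands of the RefSeq promoter windows of GRCh38.p14, from 250 bases before to 50 bases after each start, were searched for exact matches. PDIA3, DERL1 and DERL3 were not in the table. The long element lay in a window of 7 of the other 31 genes (22.58%), against 25 of the 27305 genes with a window (0.09156%). Of the 9088 genes with a window that were also tested for acid effects below, 15 held it (0.1651%). The short element lay in 3 of the 31 (9.677%), against 19 genes in all (0.06958%) and 14 of the tested ones (0.154%). The counts over all and over tested genes include the members. In the sequences below, all written 5′ to 3′ along the gene, capitals mark the pair of boxes.
HSPA5: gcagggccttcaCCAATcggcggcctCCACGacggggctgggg
HERPUD1: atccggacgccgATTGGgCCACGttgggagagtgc
SDF2L1: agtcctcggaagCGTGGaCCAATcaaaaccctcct
HSP90B1, distal copy: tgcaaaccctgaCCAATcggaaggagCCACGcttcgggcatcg
HSP90B1, proximal copy: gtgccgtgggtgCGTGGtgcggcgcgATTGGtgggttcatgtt
HYOU1, distal copy: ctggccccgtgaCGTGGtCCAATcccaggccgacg
HYOU1, proximal copy: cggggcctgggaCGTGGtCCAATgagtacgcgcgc
XBP1: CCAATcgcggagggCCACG
CALR: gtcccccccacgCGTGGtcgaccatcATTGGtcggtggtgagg
CRELD2: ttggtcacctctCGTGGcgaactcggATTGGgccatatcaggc
CANX: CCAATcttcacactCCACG
PDIA6: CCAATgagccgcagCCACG
The HSPA5 stretch lies at chr9:125241379-125241421 on the minus strand and that of HERPUD1 at chr16:56932013-56932047 on the plus strand. SDF2L1 is shown at chr22:21642102-21642136, plus strand. The HSP90B1 copies lie at chr12:103930204-103930246 and chr12:103930309-103930351, plus strand. Those of HYOU1 lie at chr11:119057368-119057402 and chr11:119057262-119057296, minus strand, where TGACGTG, the core of a further XBP1 element, overlaps the distal copy. XBP1 is shown at chr22:28800603-28800621, minus strand, and CALR at chr19:12938372-12938414, plus strand. CRELD2 is shown at chr22:49918542-49918584, plus strand, CANX at chr5:179698778-179698796, plus strand, and PDIA6 at chr2:10812853-10812871, minus strand. HERPUD1 also held TGATGNAA, the core of the ATF4 element, as did 4.457% of all genes with a window and 2.806% of the tested ones. TGACGTG lay in 1 of the 31 genes (3.226%), a share near the 2.395% of all and 3.455% of the tested ones. The box CCACG alone lay in 23 of the 31 (74.19%), against 42.09% of all and 58.22% of the tested ones.

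The columns of the table summed to 600589 to 700348 FPKM (fragments per kilobase of transcript, scaled to library depth). Depth, estimated from the spacing of low values, came to 19.6 to 35.8 M fragments (M for mega) in 24 libraries, and to 11.1 M at pH 6.3 and 8 h and 9.70 M at pH 7.4 and 12 h. Some libraries deviated from the mean of all libraries along the GC content of transcripts: the correlation across genes was 0.58 at pH 6.3 and 20 h, and 0.65, −0.54 and −0.63 at pH 7.4 and 28, 44 and 48 h. Of the lineage markers, VIM averaged 649 FPKM at pH 6.3, against 602 FPKM at pH 7.4, and RUNX2 24.8 and 24.0 FPKM, whereas the bone genes SP7, BGLAP and IBSP were at or near 0 and 5 of 9 mesenchymal markers passed the filter on low values. Of these 5, COL1A1 and ALPL were lower at pH 6.3. The 7 epithelial markers summed to 5.02 to 10.98 FPKM at pH 6.3 and to 8.89 to 17.0 FPKM at pH 7.4, with CLDN3 at 0 and 4 past the filter, all of them lower at pH 6.3. The 7 leukocyte markers summed to 0.678 to 9.38 FPKM at pH 6.3 and to 0.594 to 2.40 FPKM at pH 7.4, with only CD68, a lysosomal protein, past the filter, higher at pH 6.3 by 1.02. The part of these markers in the results was not tested.

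Together the 34 genes were higher in acid. Their summed level was 8393 ± 637 FPKM at pH 6.3 and 5633 ± 362 FPKM at pH 7.4 (SD, n = 13 each), or 1.33% ± 0.125 and 0.872% ± 0.0517 of all FPKM. The sum at pH 6.3 was the higher at every time, and the ranges, 7032 to 9463 FPKM at pH 6.3 and 5048 to 6340 FPKM at pH 7.4, did not overlap. The acid effect of a gene, the mean over 13 times of the pH 6.3 minus pH 7.4 difference in log2(FPKM + 1), was tested with limma and Benjamini-Hochberg adjustment at 0.05 in the 11838 genes that averaged 1 FPKM or more. Changes of weakly expressed genes come out too small on this scale. Of the 33 members tested 22 were higher at pH 6.3 (22.4% of all tested genes were), 1 was lower (37.3% of all) and 10 did not pass. Their median acid effect was 0.42, against −0.12 over all tested genes. With quantile normalization the median was −0.02 over all genes and 0.42 over the members. Higher genes made up 37.5% of all calls, 48.1% with quantile normalization and 49.0% with a correction for GC content. RNA of bulk cells does not separate a change in RNA per cell from a change in which cells were present.

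**Figure D1:**
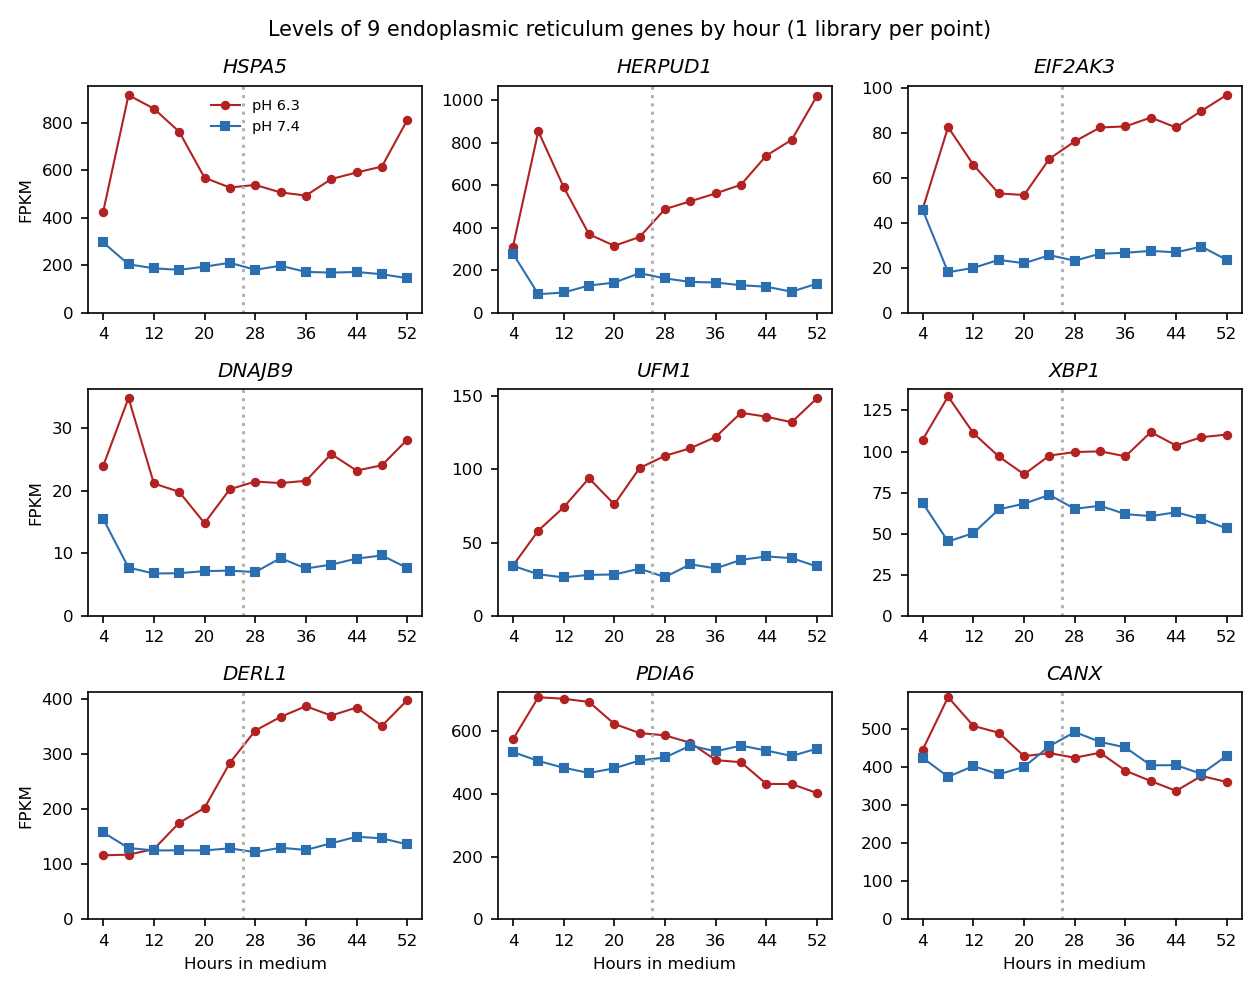
Levels in FPKM of 9 of the genes by hours in the medium, with 1 library per point, pH 6.3 as red circles, pH 7.4 as blue squares and a dotted line between the sets of plates. At pH 6.3 HERPUD1, HSPA5 and EIF2AK3 stood above pH 7.4 at 13 of 13 times, DERL1 did so from 12 h on, and PDIA6 lay below pH 7.4 from 36 h on.

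Most of the chaperones were higher in acid. Of 12, 9 were higher at pH 6.3 (22.4% of all tested genes were) and 3 (CALR, CANX and CRELD2) did not pass. The median acid effect of the 12 was 0.77. HSPA5 (BiP, the major Hsp70 chaperone of the compartment and a known restraint on the sensors, ENSG00000044574, chr9:125234853-125241330 in GENCODE 29 on GRCh38) had a lowest level of 425, a median of 568 and a highest of 916 FPKM at pH 6.3, against 145, 181 and 296 FPKM at pH 7.4. The lowest acid library thus lay above every neutral one, the means stood at a ratio of 3.31, and the acid effect was 1.71 ± 0.12 (SE, adjusted p = 6.99e-08). HSP90B1 (GRP94, the Hsp90 of the compartment) ranged from 896 to 1367 FPKM with a median of 1229.9 at pH 6.3, against 569 to 763 with a median of 662 at pH 7.4. Its groups did not overlap, and its acid effect was 0.88 ± 0.07 (adjusted p = 1.64e-07). MANF, a secreted folding factor that binds BiP, was also above its whole neutral range, with 392, 499 and 622 FPKM as the lowest, median and highest level at pH 6.3 and 206, 242 and 389 FPKM at pH 7.4. Its acid effect was 1.02 ± 0.10 (adjusted p = 1.29e-06).

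The partners of BiP were higher as well. DNAJB9 (ERdj4, a J-domain protein that directs clients and IRE1 to BiP) averaged 23.1 ± 4.76 FPKM at pH 6.3 and 8.44 ± 2.33 FPKM at pH 7.4 (SD, n = 13 each) and was higher at 13 of 13 times, with an acid effect of 1.36 ± 0.11. Its groups overlapped only through the neutral 4 h library, at 15.5 FPKM, and the acid 20 h library, at 14.8 FPKM. DNAJC3 (p58IPK, a co-chaperone) had an acid effect of 0.82 ± 0.14, DNAJB11 (ERdj3) of 0.70 ± 0.09 and HYOU1 (GRP170, which exchanges nucleotide on BiP) of 0.73 ± 0.11. DNAJB11 and DNAJC3 were higher at 12 of 13 times each and HYOU1 at 13. HSPA13, a divergent Hsp70, rose by 0.42 ± 0.09.

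SDF2L1, a partner of DNAJB11, varied the most between libraries. It averaged 20.8 ± 9.79 FPKM at pH 6.3, against 6.46 ± 4.63 FPKM at pH 7.4, and its acid effect was 1.61 ± 0.27 (adjusted p = 9.6e-05), but the difference was −0.68 at 28 h and 3.46 at 48 h. With 66.2% GC it was the most GC-rich of these genes, and the neutral 28 h and 48 h libraries are those with the strongest GC deviation. Corrected for GC content, its acid effect was 1.54. CRELD2, a disulfide-forming chaperone of 59.8% GC, differed by −1.18 at 28 h and 1.51 at 48 h, and its acid effect of 0.21 ± 0.16 did not pass (adjusted p = 0.274). Over the 33 genes the correlation of GC content with the 48 h minus 28 h change in the difference was 0.84, as it was 0.80 over 11815 genes. Over the 33 genes the correlation of GC content with the acid effect was −0.05, and the part of GC content in the acid effects was not tested by these correlations. CALR and CANX, the lectin chaperones of glycoproteins, had acid effects of 0.18 ± 0.10 and 0.02 ± 0.08 and did not pass. CALR averaged 852 ± 171 FPKM at pH 6.3 and 748 ± 109 FPKM at pH 7.4, CANX 429 ± 68.3 and 420 ± 36.3 FPKM, and both estimates turned below 0 with quantile normalization.

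**Figure D2:**
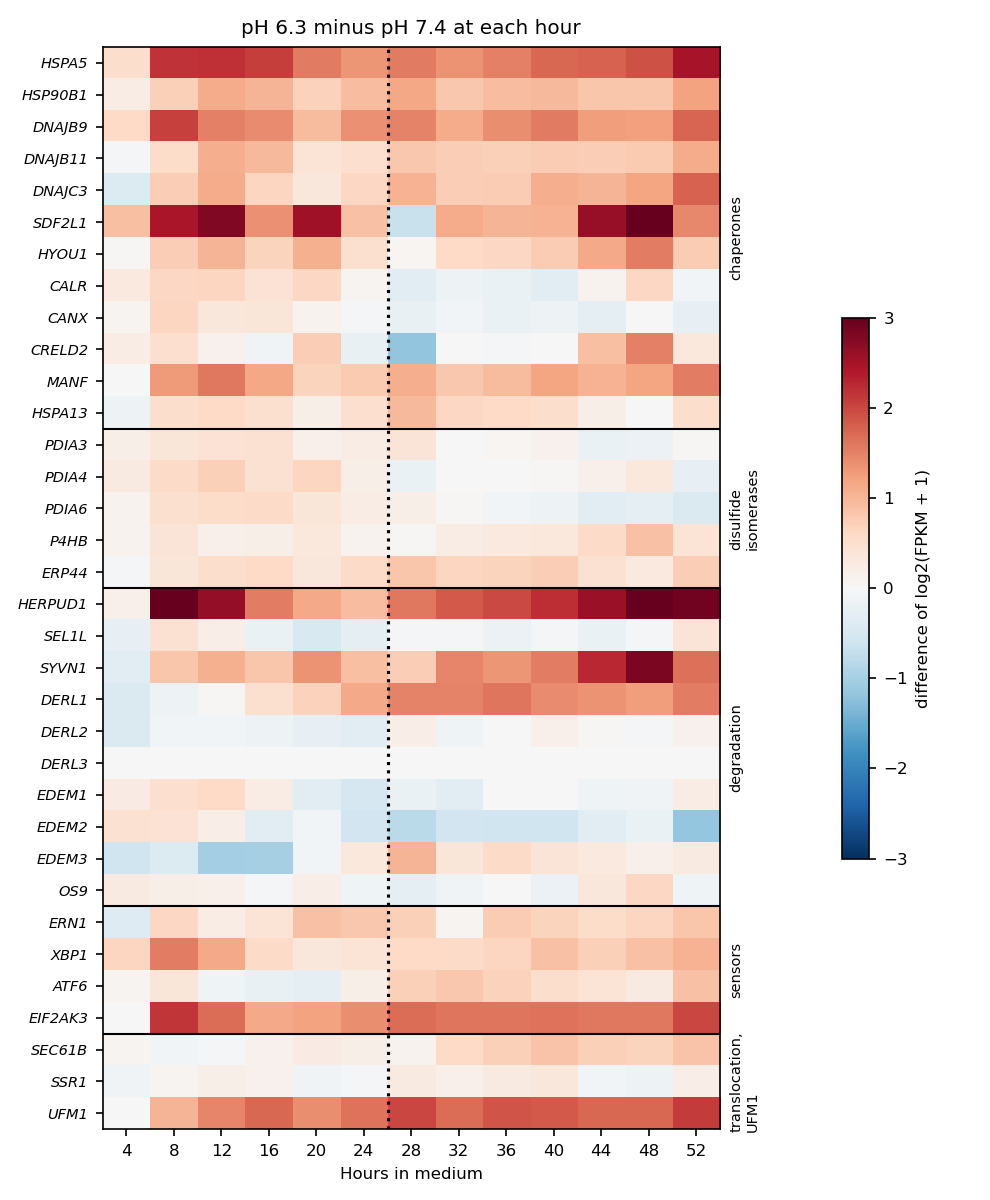
The pH 6.3 minus pH 7.4 difference in log2(FPKM + 1) of each of the 34 genes (rows, by role) at each hour (columns), red where pH 6.3 was higher and blue where it was lower, on a scale limited to 3 in either direction. At 4 h no gene reached a difference of 1 (1.75% of all tested genes did) and at 12 h 13 genes did (5.69% of all). DERL3 is listed at 0 in every library.

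The disulfide isomerases had smaller acid effects. Of 5, 4 were higher (22.4% of all tested genes were) and 1 (PDIA6) did not pass, with a median acid effect of 0.22. P4HB (PDI itself) had 1108 FPKM as the lowest, 1282 as the median and 1519 as the highest level at pH 6.3, against 797, 1052 and 1155 FPKM at pH 7.4. It was higher at 13 of 13 times, by 0.31 ± 0.07 (adjusted p = 0.000805), and with quantile normalization it no longer passed. ERP44, which retrieves unassembled proteins from the early secretory pathway, had the largest acid effect of the 5, 0.52 ± 0.08 (adjusted p = 6.52e-05), with 24.4 ± 5.00 FPKM at pH 6.3 and 16.5 ± 2.42 FPKM at pH 7.4. PDIA4 (ERp72) rose by 0.22 ± 0.09 (adjusted p = 0.0348) and PDIA3 (ERp57, the partner of CALR and CANX) by 0.16 ± 0.07 (adjusted p = 0.0486). Both calls hung on single pairs: PDIA3 turned to −0.02 with quantile normalization and missed the threshold without the 4, 8, 12, 16, 20, 24, 28, 32, 36, 40 or 52 h pair in turn, and PDIA4 did so without the 8, 12, 16, 20 or 48 h pair. PDIA6, with 564 ± 104 FPKM at pH 6.3 and 519 ± 28.5 FPKM at pH 7.4, had an acid effect of 0.10 ± 0.09, which turned to −0.09 with quantile normalization.

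The degradation machinery was split. Of 10 genes 9 were tested, of which 3 were higher (22.4% of all tested genes), 1 was lower (37.3% of all) and 5 did not pass. The median acid effect of the 9 was 0.02. HERPUD1 (HERP, a membrane adaptor of the HRD1 ubiquitin ligase, ENSG00000051108, chr16:56932048-56944863) had the largest acid effect of all 33 genes. Its lowest, median and highest levels were 310.2, 561 and 1019.6 FPKM at pH 6.3, against 86.7, 136 and 278 FPKM at pH 7.4. The groups did not overlap, the ratio of means was 4.08 and the acid effect 1.99 ± 0.22 (adjusted p = 2.53e-06). SYVN1, which encodes HRD1, averaged 49.6 ± 15.2 FPKM at pH 6.3 and 19.6 ± 4.90 FPKM at pH 7.4, with an acid effect of 1.27 ± 0.19 (adjusted p = 3.78e-05). It was lower at 4 h and higher at the other 12 times. For SEL1L, the subunit that links HRD1 to its substrates, no change passed: it averaged 34.2 ± 6.50 and 35.0 ± 3.69 FPKM at pH 6.3 and pH 7.4, and its acid effect was −0.05 ± 0.08 (adjusted p = 0.614), turning to 0.10 with GC correction.

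The derlins, membrane proteins that pass substrates towards the cytosol, differed among themselves. DERL1 had an acid effect of 0.92 ± 0.17 (adjusted p = 0.000303), with levels of 116, 343 and 398 FPKM as the lowest, median and highest at pH 6.3 and 122, 129 and 158 FPKM at pH 7.4. DERL2 had 66.8 ± 6.03 FPKM at pH 6.3 and 70.3 ± 4.64 FPKM at pH 7.4, an effect of −0.08 ± 0.07 that did not pass. DERL3 was listed at 0 in all 26 libraries. Of the EDEM proteins, which trim or recognise mannose on misfolded glycoproteins, EDEM2 was lower, with 15.5 ± 4.68 FPKM at pH 6.3 and 19.0 ± 2.80 FPKM at pH 7.4, an acid effect of −0.32 ± 0.13 (adjusted p = 0.0424). That call was lost with upper-quartile scaling, quantile normalization or GC correction, and without the 16, 24, 28, 32, 36, 40, 44, 48 or 52 h pair in turn. EDEM1 (0.01 ± 0.09), EDEM3 (0.02 ± 0.16) and OS9, a lectin that hands glycoproteins to HRD1 (0.06 ± 0.08), did not pass.

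All 4 sensor and effector genes were higher in acid (22.4% of all tested genes were). EIF2AK3, which encodes PERK, the kinase that slows translation by phosphorylating eIF2α, had a lowest level of 46.1, a median of 82.3 and a highest of 96.7 FPKM at pH 6.3, against 18.0, 25.5 and 45.5 FPKM at pH 7.4. The acid libraries all lay above the neutral ones, and the acid effect was 1.48 ± 0.13 (adjusted p = 4.18e-07). XBP1, whose RNA is spliced by IRE1 to give the active factor, ranged from 86.1 to 134 FPKM with a median of 104 at pH 6.3 and from 45.3 to 73.6 FPKM with a median of 63.0 at pH 7.4. Its groups did not overlap and its acid effect was 0.76 ± 0.09 (adjusted p = 5.28e-06); a value per gene does not separate the spliced from the unspliced form. ERN1 was low in both media, with 10.0 ± 1.97 FPKM at pH 6.3, against 6.63 ± 1.13 FPKM at pH 7.4, and rose by 0.53 ± 0.11 (adjusted p = 0.000675). ATF6 had the smallest effect, 0.33 ± 0.11 (adjusted p = 0.0162), with 25.8 ± 6.69 FPKM at pH 6.3 and 19.7 ± 1.86 FPKM at pH 7.4.

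Of the 3 genes of translocation and UFM1 modification 2 were higher (22.4% of all tested genes were) and 1 (SSR1) did not pass. UFM1, a ubiquitin-like modifier attached to ribosomes at the translocation channel, had 34.3, 109 and 148 FPKM as the lowest, median and highest level at pH 6.3, against 26.2, 32.4 and 40.5 FPKM at pH 7.4, and an acid effect of 1.55 ± 0.14 (adjusted p = 3.78e-07). At 4 h the levels were 34.3 FPKM at pH 6.3, against 34.1 FPKM at pH 7.4, and from 8 h on the acid level lay above the whole neutral range. SEC61B, a subunit of the channel, rose by 0.39 ± 0.10 (adjusted p = 0.00226), with 159 ± 27.7 FPKM at pH 6.3 and 120 ± 12.1 FPKM at pH 7.4. SSR1, a subunit of the translocon-associated TRAP complex, had 141 ± 17.6 and 133 ± 13.9 FPKM at pH 6.3 and pH 7.4 and did not pass (adjusted p = 0.236).

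Counted over all 34 genes, 6 (HSPA5, HSP90B1, MANF, HERPUD1, XBP1 and EIF2AK3) had every acid library above every neutral one, as did 1.28% of all tested genes. Another count gave 10 that were higher at 13 of 13 times (4.43% of all tested genes), and 8 rose by at least 1 on the log2 scale (3.41% of all). In the other direction these 3 counts were 0, against 2.37%, 8.19% and 5.6% of all tested genes. The 10 genes with either stress element in their window had a median acid effect of 0.75, between 0.02 for CANX and 1.99 for HERPUD1. Of these 10 genes 6 passed as higher, as did 22.4% of all tested genes. The 21 genes with a window but no exact match to either element had a median of 0.39. Of these 14 passed as higher, among them UFM1, EIF2AK3 and DNAJB9, so both sets held strongly and weakly changed genes. Inexact copies and copies outside the windows were not searched for.

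At 4 h the median difference of these genes was small, though single genes differed. The members' median was 0.08, against 0.04 over all tested genes, and 22 of 34 were higher (53.6% of all). In these hourly values the 34 include DERL3, which was not tested, with a difference of 0. No member reached 1, as 1.75% of all tested genes did. The differences ran from −0.59 for EDEM3 to 0.91 for SDF2L1, with XBP1 at 0.64, DNAJB9 at 0.60 and HSPA5 at 0.52. At 8 h the median was 0.53, against −0.13 over all genes, and 8 members reached 1 (4.07% of all tested genes did). At 12 h the median was 0.56, against −0.23 over all genes, and 13 members reached 1 (5.69% of all tested genes did). At 4 h HERPUD1 had 310.2 FPKM at pH 6.3, against 278 FPKM at pH 7.4. At 8 h it had 853 FPKM at pH 6.3, against 86.7 FPKM at pH 7.4, a difference of 3.28. Both media thus moved, the acid level upward and the neutral level downward. EIF2AK3 showed the same shape, with 46.1 FPKM at pH 6.3 and 45.5 FPKM at pH 7.4 at 4 h, and 82.4 FPKM at pH 6.3 and 18.0 FPKM at pH 7.4 at 8 h. The acid 8 h and neutral 12 h libraries were the shallowest, and the part of depth in the 8 and 12 h differences was not tested. At 16 h, from libraries of 24.2 M at pH 6.3 and 24.7 M fragments at pH 7.4, the differences were 1.52 for HERPUD1, 2.07 for HSPA5 and 1.14 for EIF2AK3.

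For several genes the difference was smaller at 20 to 24 h than before and after. The HERPUD1 difference was 0.93 at 24 h and 3.03 at 48 h, and that of HSPA5 1.32 at 24 h and 2.47 at 52 h, while XBP1 had its largest difference, 1.54, at 8 h and 0.33 at 20 h. DERL1 took another course: its difference was −0.44 at 4 h, 0.03 at 12 h, 0.48 at 16 h and 1.14 at 24 h, and between 1.25 and 1.61 from 28 h on. The members' median difference was 0.36 at 24 h, against −0.13 over all genes, and 0.76 at 52 h, against −0.16 over all genes. At 52 h 13 members reached 1 (7.97% of all tested genes did). Changes in the difference per hour within a set of plates passed for none of the 33 genes (0.515% of all tested genes rose and 0.946% fell), and 4 (SYVN1, HYOU1, SEC61B and DERL1, all upward) had an unadjusted p below 0.05, as did 11.2% of all tested genes upward, a share near that of the members. Of these 4 slopes the largest was 0.06 per hour for SYVN1 (adjusted p = 0.0815), while SDF2L1, not among the 4, had 0.07 per hour (adjusted p = 0.268).

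Within the 28 to 52 h plates 21 members were higher at pH 6.3 (25.2% of all tested genes) and 1 was lower (33.4% of all). Within the 4 to 24 h plates 21 were higher (11.9% of all) and 2, DERL2 and EDEM3, were lower (28% of all). Of the 33 genes 16 were higher in both sets (8.98% of all). The members' median acid effect was 0.62 at 28 to 52 h and 0.39 at 4 to 24 h, against −0.10 and −0.14 over all genes. Without the 8 and 12 h pairs, which hold the shallow libraries, 21 members passed as higher in the late set (26.2% of all) and 12 in the early one (9.23% of all).

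Of the 33 genes 9 had an acid effect that differed between the sets, in a test of the interaction of pH and plate set. For 4 of the 33 the effect was higher at 28 to 52 h, a share near the 10.5% of all tested genes. For 5 it was lower (6.56% of all). DERL1 rose by 1.45 ± 0.14 at 28 to 52 h, against 0.29 ± 0.15 at 4 to 24 h, a change of 1.16 ± 0.20 (adjusted p = 0.00233). Its mean level was 372 FPKM at pH 6.3 and 135 FPKM at pH 7.4 at 28 to 52 h, and 170 FPKM at pH 6.3 and 132 FPKM at pH 7.4 at 4 to 24 h. EDEM3 was higher in acid late, by 0.44 ± 0.15, and lower in acid early, by −0.46 ± 0.17, each past the threshold, with a change of 0.90 ± 0.23 (adjusted p = 0.0148). ATF6 rose by 0.62 ± 0.11 late, against −0.00 ± 0.11 early (adjusted p of the change 0.0149), and SEC61B by 0.65 ± 0.09 late, against 0.09 ± 0.09 early (adjusted p of the change 0.00862). Without the 8 and 12 h pairs the changes of EDEM3 and SEC61B, at 0.78 and 0.48, no longer passed. Without the 8, 12, 20, 28, 44 and 48 h pairs, which hold the libraries of low depth or strong GC deviation, none of the 9 changes passed, with 3 early and 4 late pairs in the fit.

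The genes that moved the other way were abundant folding factors and EDEM2. PDIA6 had −0.15 ± 0.08, not past the threshold, at 28 to 52 h and rose by 0.38 ± 0.09 at 4 to 24 h, a change of −0.53 ± 0.12 (adjusted p = 0.00778). PDIA4 had 0.01 ± 0.08 late and rose by 0.47 ± 0.09 early (adjusted p of the change 0.0207). CALR had −0.05 ± 0.10 late and rose by 0.45 ± 0.11 early (adjusted p of the change 0.0337), and CANX had −0.17 ± 0.08 late and rose by 0.24 ± 0.08 early (adjusted p of the change 0.0208). EDEM2 was lower in acid late, at −0.61 ± 0.14, and had 0.02 ± 0.15 early (adjusted p of the change 0.0477). None of these 5 decreases passed without the 8 and 12 h pairs. Without the 12 h pair alone CANX and PDIA4 did not pass, CALR did not without the 8, 12, 16, 20, 28, 32, 36, 40 or 52 h pair in turn, and EDEM2 did not without the 4, 8, 12, 20, 28, 32, 36, 40, 44 or 52 h pair. The late and early effects of HSPA5, 1.76 ± 0.17 and 1.64 ± 0.19, did not differ past the threshold (adjusted p of the change 0.778), and those of XBP1, 0.76 ± 0.12 and 0.77 ± 0.13, did not either (adjusted p 0.979). Those of HERPUD1 were 2.31 ± 0.28 late and 1.61 ± 0.30 early (adjusted p of the change 0.267), and without the 8 and 12 h pairs this change was 1.36 and passed.

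**Figure D3:**
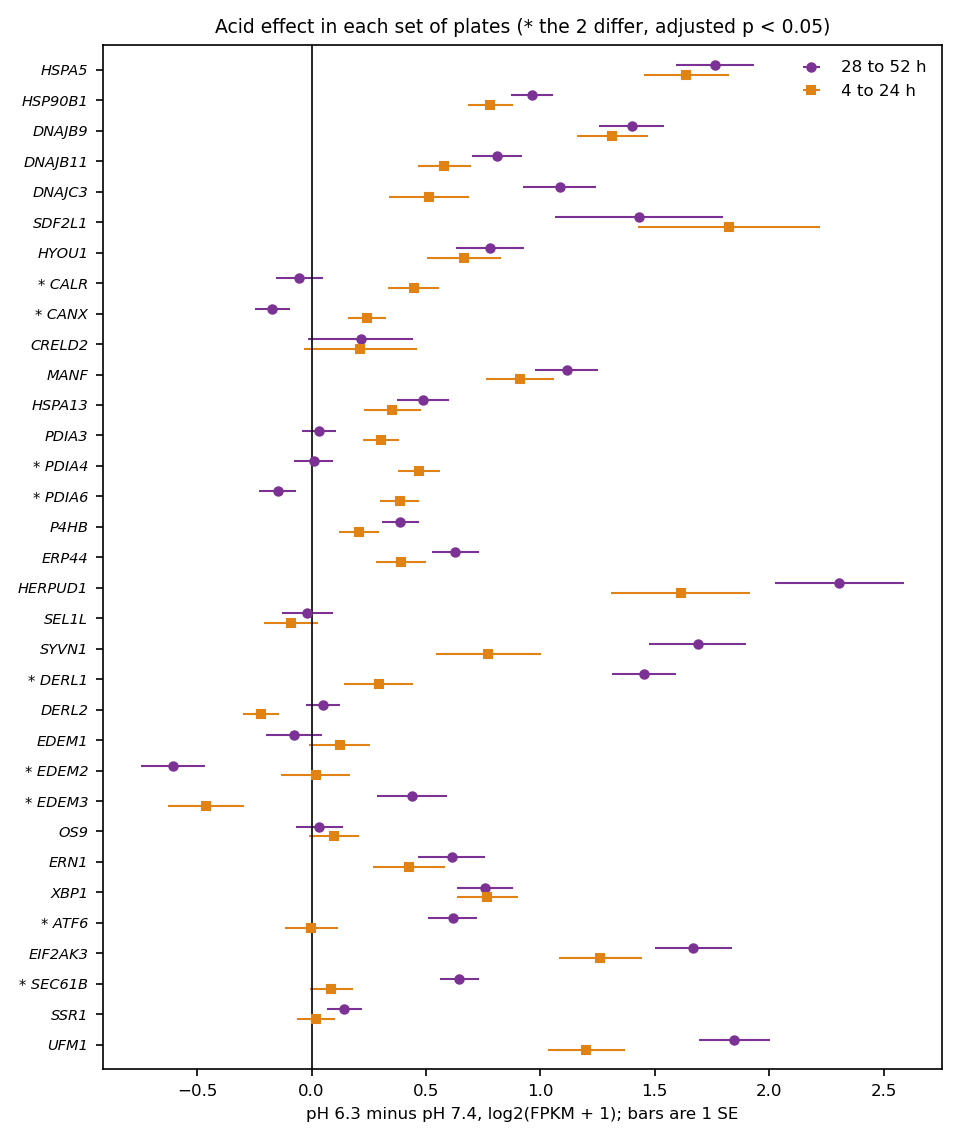
Acid effect of the 33 tested genes, as pH 6.3 minus pH 7.4 in log2(FPKM + 1) with bars of 1 SE, within the 28 to 52 h plates (purple circles) and the 4 to 24 h plates (orange squares). Asterisks mark the 9 genes whose effects differed between the sets by limma; DERL1 lies at 1.45 late and 0.29 early, PDIA6 at −0.15 late and 0.38 early.

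The sets of plates were also compared within each medium, without the time point as block. At pH 6.3, 14 members were higher at 28 to 52 h than at 4 to 24 h (25% of all tested genes). There 6 of 33 were lower, a share near the 16.6% of all tested genes. At pH 7.4 only EDEM1 was higher late, by 0.55 ± 0.13 (adjusted p = 0.00716, with 4.44% of all genes higher), and none was lower (3.14% of all). At an unadjusted p below 0.05 in either direction there were 3 of 33. The share of all tested genes at that threshold was not counted, so the 3 cannot be set against it. The late increases at pH 6.3 included DERL1 at 1.20 ± 0.14, EDEM3 at 0.96 ± 0.17 and UFM1 at 0.88 ± 0.16, and the decreases EDEM2 at −0.59 ± 0.13, CALR at −0.50 ± 0.10 and PDIA4 at −0.43 ± 0.09.

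Because the study asked about the clock, rhythms of 24 h were tested with limma. The fit held a linear trend for each pH, but no block and no term for plate set. None of the 33 genes passed at pH 6.3, at pH 7.4 or in the difference between them, where 0, 5 and 2 of all tested genes passed (0%, 0.0422% and 0.0169%). At an unadjusted p below 0.05 there were 2 members (SEL1L and ATF6) at pH 6.3, none at pH 7.4 and the same 2 in the difference, against 9.15%, 3.74% and 9.28% of all genes.

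Other genes of the pathway, listed by their known function, were counted in the same fit. In it 22.4% of all tested genes were higher and 37.3% were lower. Among these lists that of the PERK arm and ATF4 had the largest median, 1.16, with 7 of 8 genes higher and 1 lower. The part of PERK in these levels was not tested. DDIT3 (CHOP, a transcription factor induced through ATF4) averaged 81.5 ± 61.3 FPKM at pH 6.3 and 16.2 ± 2.42 FPKM at pH 7.4 (SD, n = 13 each). It rose by 1.97 ± 0.22. PPP1R15B, a subunit of the phosphatase that reverses eIF2α phosphorylation, averaged 85.3 ± 18.9 FPKM at pH 6.3 and 22.3 ± 7.0 FPKM at pH 7.4. It rose by 1.89 ± 0.16, whereas EIF2S1, which encodes eIF2α, fell by 0.25 on the log2 scale. Of 20 genes of the COPII coat and of cargo exit from the compartment, 19 were higher and none was lower, with a median of 0.76. SEC24A, a cargo adaptor of the coat, rose by 1.61 ± 0.17 and SEC13, a subunit of its outer cage, by 1.56 ± 0.19.

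The remaining lists were mixed, beside the 22.4% of all tested genes that were higher and the 37.3% that were lower. Of 31 genes of the translocon, signal recognition and signal peptidase 17 were higher and 4 lower, with a median of 0.30. SRPR (the signal recognition particle receptor) rose by 1.56 ± 0.16 and SRP54, which binds signal sequences, by 1.24 ± 0.21, while the oligosaccharyltransferase subunits TUSC3 and MAGT1 fell by 0.62 and 0.49. Of 31 other degradation genes 13 were higher and 4 lower, with a median of 0.15. The deubiquitinase YOD1 rose by 1.74 ± 0.13 and FAM8A1, a partner of HRD1, by 1.58 ± 0.20, while the membrane scaffold genes ERLIN2 and ERLIN1 fell by 0.99 and 0.58. Of 32 other folding enzymes 13 were higher and 7 lower, with a median of 0.13: SERP1 rose by 1.12 ± 0.14 and TXNDC11 by 0.92 ± 0.12, and the membrane thioredoxin-like genes TMX3 and TMX1 fell by 0.77 and 0.62. Of 6 tested UFMylation genes 3 were higher, among them DDRGK1 (0.93 ± 0.20), and none was lower. Their median was 0.68 at 28 to 52 h and −0.01 at 4 to 24 h. Every other list also had its higher median late, such as 1.53 against 0.67 for the PERK arm and ATF4. For COPII the medians were 1.02 and 0.43, and for the stress transducers 0.12 and 0.08. Over all tested genes they were −0.10 and −0.14. Of 15 other stress transducers 3 were higher, a share near that of all tested genes, and 2 were lower. BBC3 (the apoptosis protein PUMA) rose by 1.00 ± 0.20 and CREB3 by 0.85 ± 0.17. The lower ones were CREB3L1 at −1.31 ± 0.23 and the ATF6-cleaving protease gene MBTPS2 at −0.89 ± 0.15.

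**Figure D4:**
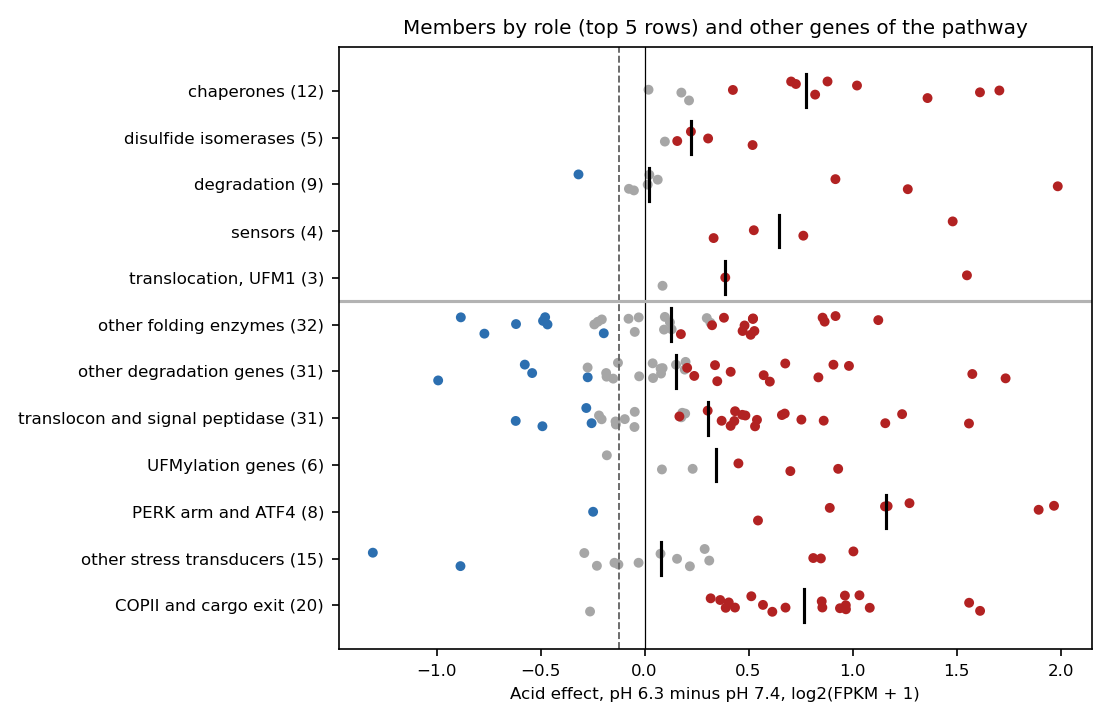
Acid effect in log2(FPKM + 1) of the members by role (top 5 rows) and of the other pathway genes by list (lower 7 rows), with the number of genes tested in brackets. Points are genes, red where higher at pH 6.3 by limma, blue where lower and grey where not past the threshold. Black bars are medians and the dashed line is the median of all tested genes, −0.12. The COPII list holds 19 red points of 20 (22.4% of all tested genes were higher).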

How the data were processed

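The authors deposited 1 table of FPKM values for 26 libraries. The libraries came from a stranded kit for polyadenylated RNA, per the labels' protocols. The submitters' processing notes name STAR, Cufflinks and the hg38 build; tool versions, annotation and strand handling are not stated there. Of 19806 rows 1448 were at 0 throughout, and of 101 repeated symbols the row with the highest mean was kept.

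Fragment totals are not listed. For an estimate of depth, 1831 genes of 1 transcript and 1000 or more bases were used, taking the value of 1 fragment to depend on length minus 200 bases. Between 61.3% and 72.4% of values up to 3.5 fragments lay within 0.1 of a whole number, too few for a count test. Per library 81 to 126 values lay within 0.05 of 1 fragment, and 0 to 2 lay where 1 or 2 fragments would fall at a depth 3 times as great.

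Values were tested as log2(FPKM + 1) in R 4.3.3 by limma 3.58.1 with a trended empirical Bayes prior and Benjamini-Hochberg adjustment at 0.05 over the 11838 genes that averaged 1 FPKM or more. The time point was a block for the acid effects and for their difference between plate sets. Both media of a time were harvested together, per the labels' protocols. Slopes were fitted to the within-time differences with a term for plate set. Comparisons of plate sets within a medium and the rhythm tests used no block, and the rhythm tests no term for plate set. GC content and coordinates came from GENCODE 29. Code was tested on simulated data. The members, lists and tests were chosen with earlier results of these data known. Every member is named; from each other list at most 2 called increases and 2 called decreases with at least 5 FPKM are. A few genes that this rule takes are not reported here. The alternatives were a pseudocount of 0.1, no filter, 2 scalings, GC correction, an untrended prior, no block, and leaving out pairs.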

Additional observations from a re-analysis of the deposited data

Results flagged for a closer look

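For 9 genes the acid effect (pH 6.3 minus pH 7.4, log2 scale) differed between the 28 to 52 h and the 4 to 24 h plates, by limma's interaction test. The late minus early change was 1.16 for DERL1, 0.90 for EDEM3, 0.62 for ATF6 and 0.56 for SEC61B. These 4 of 33 tested members were a share near the 10.5% of all tested genes that were higher late. It was −0.63 for EDEM2, −0.53 for PDIA6, −0.50 for CALR, −0.46 for PDIA4 and −0.41 for CANX, and 6.56% of all tested genes were lower late. Time in the medium and plate set cannot be told apart in this test, and within a set no slope per hour of these genes passed.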

How the results depend on the processing

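The number of members higher in acid stayed between 19 (quantile normalization) and 27 (GC correction) of 33 under every alternative, against 22 as reported, and those higher at 28 to 52 h between 20 and 22. The number lower, 1 (EDEM2), was 0 with no filter, upper-quartile scaling, quantile normalization or GC correction and 0 to 1 leaving out single pairs. At 4 to 24 h members higher numbered 12 without the 8 and 12 h pairs and 8 without the 8, 12, 20, 28, 44 and 48 h pairs. Members lower there, 2 as reported, numbered 1 with no filter, an untrended prior or without the 8 and 12 h pairs, 0 with either scaling, GC correction or without the 6 pairs, and 0 to 2 leaving out single pairs. Over all genes there, 2663 were higher with GC correction, and 482 were higher and 760 lower without the 6 pairs. At 28 to 52 h members lower numbered 4 with quantile normalization, 2 without the 8 and 12 h or the 6 pairs, and 1 to 2 leaving out single pairs.

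For the difference between plate sets, 8 members were higher late with no replicate block, against 4 with the time point as block, and 0 without the 6 pairs. Members lower late numbered 3 with no filter or an untrended prior, 0 without the 8 and 12 h or the 6 pairs, and 1 to 5 leaving out single pairs. Over all genes 457 were higher and 250 lower without the 8 and 12 h pairs, 2 and 0 without the 6 pairs, 1478 were lower with GC correction, and single pairs gave 791 to 1626 higher and 500 to 1025 lower. The block changed no other count of calls among the members by over 1.5 times.

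Slopes over all genes numbered 116 upward and 208 downward with quantile normalization, 62 downward with an untrended prior, 20 upward and 40 downward without the 8 and 12 h pairs, and 11 to 590 upward and 13 to 352 downward leaving out single pairs. Members with an upward slope numbered 1 without the 8 and 12 h pairs and 0 to 1 leaving out single pairs. At pH 7.4, 687 genes were lower late with GC correction, and members higher late numbered 2 with no filter and 4 with quantile normalization. The rhythm difference was called in 1 gene with no filter.

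Acid effects that changed sign were small. With quantile normalization these were CALR at −0.0084, CANX at −0.140, PDIA3 at −0.0203 and PDIA6 at −0.0875. With GC correction they were DERL2 at 0.0683 and SEL1L at 0.0989, and with upper-quartile scaling SEL1L at 0.0044. Without the 8 and 12 h pairs CANX was at −0.0664 and EDEM1 at −0.0821, and without the 6 pairs CANX was at −0.0473, EDEM1 at −0.0210 and OS9 at −0.0535. Leaving out single pairs gave −0.0329 to 0.0423 for CANX, −0.0330 to 0.0588 for EDEM1 and −0.0595 to 0.110 for EDEM3. Of 726 acid effects of single members under an alternative 658 kept direction and call, 38 lost the call and 5 gained it. The causes were not tested. The 8 and 12 h pairs hold the shallowest libraries, and the part of depth was not tested.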
